A study of Mus musculus with 12 samples.

Results

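The genes described here are 5 sarcomere isoforms of the developing muscle fiber, Myh3, Myh8, Myl4, Actc1 and Tnnt2, followed across the 4 groups of a mouse study of the human transcription factor DUX4 in skeletal muscle. They were taken by name from a table of 37748 genes. Each name occurred once, and all 5 genes passed the filter on low counts that left 16679 genes for testing. The question was how the RNA of these isoforms, and their share within each isoform family, differed between unaffected muscle and the moderate and severe DUX4 models.

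Poly(A) RNA of the gastrocnemius, a calf muscle of mostly fast fibers, was sequenced from 12 mice aged 13 weeks, 3 per group. Control mice carried 1 copy of ACTA1-MCM, a tamoxifen (TMX) activated Cre driven by the human skeletal actin promoter. FLExD mice carried 1 copy of the FLExDUX4 transgene in Rosa26, which Cre inverts to give full-length DUX4, and no Cre. The study also describes low leaky DUX4 expression in mice of this genotype. In FLExD mice without Cre, however, it found no recombined transgene and could not detect DUX4 protein in skeletal muscle. As recorded for these samples, neither control nor FLExD mice received TMX, and the labels describe the FLExD muscle as having mild pathology. The study's own mild model is a different mouse, with both transgenes and no TMX, and is not among these groups. Mice with both transgenes (FLExDUX4/+;MCM/+) received 1 injection of 5 mg/kg TMX (moderate model) or 2 injections of 10 mg/kg on consecutive days (severe model). Muscle of both models was taken on day 9. The study describes recombination as mosaic within a muscle and as slightly leaky without TMX. The study lists TMX-injected ACTA1-MCM mice as controls of its models, and its sequencing methods do not give the treatment of the sequenced controls. As recorded, the controls had neither the transgene nor the drug, so the effects of DUX4, Cre activation and TMX cannot be told apart here. A library from bulk muscle also cannot tell fewer fibers of a kind from less RNA per fiber.

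Sarcomeres are built from families of closely related proteins whose members replace each other during development. Myh3 and Myh8 encode the embryonic and the perinatal myosin heavy chain, the motor proteins of fetal fibers, which give way after birth to the adult fast chains Myh1, Myh2 and Myh4 and the slow chain Myh7. Myl4 is the atrial and embryonic essential light chain of myosin, Actc1 the alpha-actin of the heart and of early skeletal muscle, and Tnnt2 the troponin T of the heart and of embryonic skeletal muscle, where troponin T ties the calcium switch to tropomyosin. In adult skeletal muscle these isoforms are known as marks of newly formed fibers.

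Myh3 and Myh8 lie in 1 cluster of myosin genes on mouse chromosome 11, 174.8 kb apart, with 3 coding genes (Myh2, Myh1 and Myh4) between them, and Myl4 lies elsewhere on the same chromosome. The positions in the GENCODE annotation of GRCm38, the build of the files (mm10), are chr11:67078300-67102291 for Myh3, chr11:67277124-67308634 for Myh8 and chr11:104550663-104595753 for Myl4, all on the plus strand. Tnnt2 lies at chr1:135836354-135852260 on the plus strand and Actc1 at chr2:114047282-114053548 on the minus strand. The 250 bases before the start site are shown for 3 of the 4 genes that rose together and for Actc1. Those of Myl4, the other riser, were searched in the same way but are not shown, because they reach into the first exon of Cdc27 on the other strand. The start sites are those of RefSeq, and the one used for Actc1 (chr2:114052875) lies inside the GENCODE span of the gene, which reaches further upstream. The windows are RefSeq promoters of GRCm38.p6, written 5′ to 3′ on the gene's strand, with every searched motif in capitals.
Myh3, chr11:67078050-67078299: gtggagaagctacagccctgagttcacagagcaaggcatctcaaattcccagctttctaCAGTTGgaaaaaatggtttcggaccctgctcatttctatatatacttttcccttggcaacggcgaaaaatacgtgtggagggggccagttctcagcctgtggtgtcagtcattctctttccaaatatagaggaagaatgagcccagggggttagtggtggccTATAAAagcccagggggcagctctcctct
Myh8, chr11:67276874-67277123: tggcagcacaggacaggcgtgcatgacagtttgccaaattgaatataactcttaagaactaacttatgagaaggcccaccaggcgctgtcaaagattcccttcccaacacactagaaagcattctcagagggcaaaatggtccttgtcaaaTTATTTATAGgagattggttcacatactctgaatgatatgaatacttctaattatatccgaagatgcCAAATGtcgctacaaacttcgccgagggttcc
Tnnt2, chr1:135836084-135836333: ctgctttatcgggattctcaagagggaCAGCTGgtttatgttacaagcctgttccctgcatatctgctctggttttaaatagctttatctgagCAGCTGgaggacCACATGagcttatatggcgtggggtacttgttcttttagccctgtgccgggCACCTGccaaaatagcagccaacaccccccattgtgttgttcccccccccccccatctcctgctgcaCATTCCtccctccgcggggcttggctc
Actc1, chr2:114052876-114053125: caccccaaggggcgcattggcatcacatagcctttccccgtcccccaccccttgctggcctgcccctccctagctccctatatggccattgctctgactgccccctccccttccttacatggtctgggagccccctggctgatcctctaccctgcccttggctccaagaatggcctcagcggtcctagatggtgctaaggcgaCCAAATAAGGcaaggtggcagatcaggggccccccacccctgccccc

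Both strands were searched for the E-box CANNTG, bound by the myogenic factors, the M-CAT motif CATTCC of the TEAD factors, the TATA motif TATAAA, the CArG motif of Srf, the MEF2 motif and the DUX4 motif. The Tnnt2 window held 4 E-boxes and 1 M-CAT motif, and a RefSeq alternative start of Tnnt2 held 1 E-box. The Myh3 window held 1 E-box and a TATA motif 29 to 24 bases before the start. The Myh8 window held 1 E-box and 1 MEF2 motif, inside which lay a TATA motif on the other strand. Actc1 held 1 CArG motif and no E-box, and the 250 bases before Myl4 held none of the motifs. Among 32851 RefSeq windows of the same length, 66.2% held an E-box, 12.6% an M-CAT motif, 12.4% a TATA motif, 1.47% a CArG motif, 2.92% a MEF2 motif and 0.0487% the DUX4 motif. None of the 5 genes had a DUX4 motif in these windows. A match describes these letters and is not a measured binding site.

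Libraries held 23796902 to 29136403 expected counts. Levels are given as CPM, reads of a gene per 1000000 reads of its library, after TMM scaling, which assumes that most genes keep their level. TMM factors ran from 0.706 in a control to 1.87 in a severe library. This scaling placed the middle of the 16679 log2 fold changes at 0.0408 (moderate) and 0.0823 (severe), whereas library size alone placed it at 0.646 and 1.39. Genes counted as called had an edgeR quasi-likelihood p, Benjamini-Hochberg adjusted over all genes, below 0.05 and a log2 fold change of at least 0.5 in size. With 3 counts in a library corresponding to 0.0676 to 0.155 CPM, all 5 genes were above that floor in all 12 mice.

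Myh3, the embryonic heavy chain, rose in both models and had the largest fold of the 5 genes in severe against control muscle. It stood at 10.15, 11.3 and 6.54 CPM in control mice 1127, 1246 and 1349 and at 13.8, 9.32 and 8.15 CPM in FLExD mice 1358, 1367 and 1378. In the moderate model it stood at 328.4, 166.4 and 221.2 CPM (mice 1236, 1308 and 1331), and in the severe model at 1176, 775 and 1159 CPM (mice 1047, 1066 and 1079). The control and FLExD values overlapped, while the moderate and the severe values each lay apart from every lower group. The rise over control was 25.6-fold in the moderate model (log2 fold change 4.68 ± 0.327 SE, adjusted p = 2.5e-07) and 111-fold in the severe model (6.80 ± 0.358, adjusted p = 5.89e-09). Severe exceeded moderate muscle 4.34-fold (2.12 ± 0.285, adjusted p = 8.12e-05).

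Myh8, the perinatal heavy chain, followed Myh3 up to the moderate model and then rose less. Its levels were 6.32, 7.52 and 5.40 CPM in controls, 6.99, 9.57 and 9.69 CPM in FLExD mice, 211.1, 130.7 and 157.8 CPM in moderate mice and 438.7, 360.9 and 449 CPM in severe mice. Again only the control and FLExD ranges overlapped. The rise over control was 26-fold in the moderate model (log2 fold change 4.70 ± 0.208 SE, adjusted p = 2.86e-09) and 64.9-fold in the severe model (6.02 ± 0.219, adjusted p = 8.85e-11), and severe exceeded moderate muscle 2.5-fold (1.32 ± 0.174, adjusted p = 4.14e-05).

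Tnnt2, the cardiac and embryonic troponin T, rose in both models from a low number of counts. Its 18 to 34 counts in a control library gave 1.76, 1.40 and 0.853 CPM, and the FLExD mice had 2.07, 1.44 and 1.06 CPM. Moderate mice had 27.8, 12.2 and 20.8 CPM and severe mice 96.4, 67.1 and 99.2 CPM. The moderate and severe groups were apart from each other and from the control and FLExD groups. Tnnt2 rose 15.2-fold in the moderate (log2 fold change 3.93 ± 0.382 SE, adjusted p = 8.45e-06) and 65.7-fold in the severe model (6.04 ± 0.383, adjusted p = 1.02e-07), with a 4.31-fold step between them (2.11 ± 0.283, adjusted p = 0.000137).

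Myl4, the embryonic and atrial essential light chain, rose with them but by less. Control mice had 10.7, 5.78 and 10.9 CPM, FLExD mice 6.54, 6.44 and 12.4 CPM, moderate mice 69.8, 41.03 and 47.5 CPM and severe mice 142.8, 94.5 and 145.2 CPM. The moderate and severe ranges did not overlap each other or the lower groups. The rise over control was 5.79-fold in the moderate (log2 fold change 2.53 ± 0.343 SE, adjusted p = 0.000122) and 14-fold in the severe model (3.81 ± 0.355, adjusted p = 3.38e-06), and 2.41-fold from moderate to severe (1.27 ± 0.311, adjusted p = 0.00654).

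Actc1 did not follow the other 4 genes. It was already abundant in controls and varied widely there, at 393.6, 702.3 and 1010 CPM, and FLExD mice had 642.4, 445.1 and 446.7 CPM. Moderate mice were close to each other at 572.2, 582.2 and 581.5 CPM, inside the control range, and severe mice had 406, 277.5 and 374.5 CPM, of which only the highest lay inside it. With TMM scaling Actc1 was not called in the moderate model (log2 fold change -0.28 ± 0.273 SE, adjusted p = 0.418) and was called lower in the severe model against control (-0.99 ± 0.276, adjusted p = 0.00608) and against the moderate model (-0.71 ± 0.275, adjusted p = 0.0462). The direction depended on the scale. By library size alone the log2 fold change of Actc1 was 0.322 for moderate and 0.31 for severe muscle (adjusted p = 0.33 and 0.316), both below the median of all genes on that scale, and severe against moderate muscle was not called (-0.01, adjusted p = 0.972). The call against the moderate model was lost in 14 of 20 alternative analyses, among them each one that left out a moderate or a severe mouse.

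**Figure D1:**
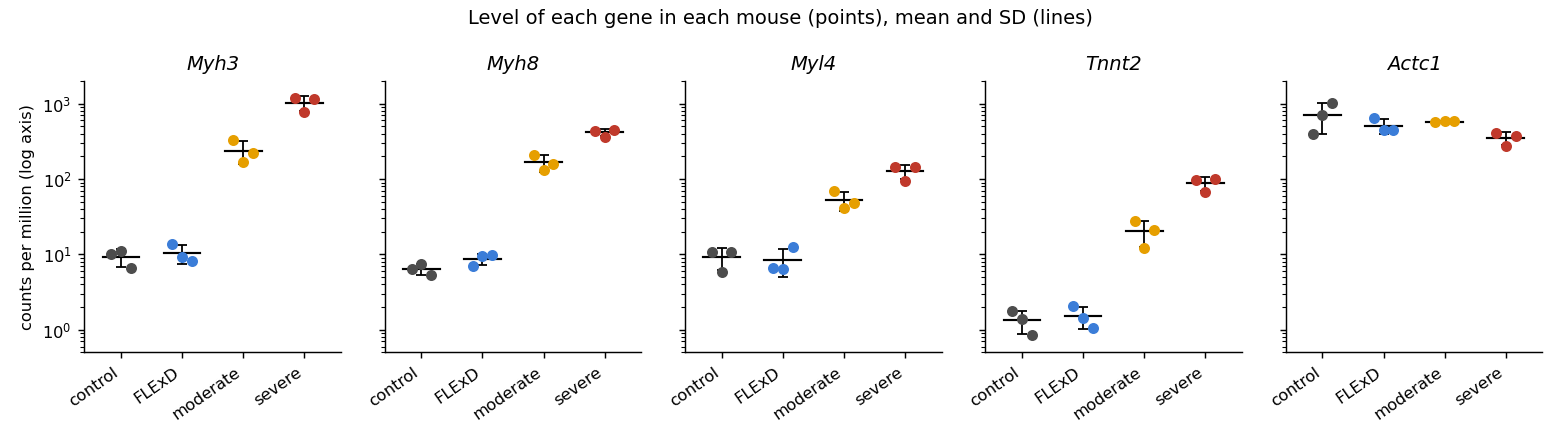
TMM-scaled CPM on a log axis for each of the 12 mice (points, 3 per group), with the group mean (horizontal line) and SD (bar), 1 panel per gene. Myh3, Myh8, Myl4 and Tnnt2 step up from the control and FLExD mice to the moderate and again to the severe mice, while Actc1 stays between 277.5 and 1010 CPM.

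In the moderate model 4 of the 5 genes were called higher and none lower, where 24.4% of all tested genes were called higher and 17% lower. In the severe model 4 of 5 were called higher and Actc1 lower, against 32.9% higher and 27.9% lower of all genes. Between severe and moderate muscle the same 4 genes were called higher and Actc1 lower, against 17.6% and 18.8% of all genes. The moderate and severe comparisons used the same 3 control mice. The median log2 fold change of the 5 genes was 3.93 (moderate) and 6.02 (severe), beside 0.0408 and 0.0823 over all tested genes. Of the 4 genes called higher, each was called higher in all 20 alternative analyses of each of these comparisons.

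No difference between FLExD and control muscle was detected for these genes with 3 mice per group. None of the 5 was called, and edgeR called 1 gene in all (0.006% of those tested). DESeq2 and limma also called none of the 5. The log2 fold changes were 0.16 ± 0.305 SE for Myh3, 0.19 ± 0.503 for Tnnt2, -0.10 ± 0.355 for Myl4 and -0.46 ± 0.274 for Actc1. Myh8 was the only member with an unadjusted edgeR p under 0.05 (log2 fold change 0.45 ± 0.2, adjusted p = 1), and its FLExD and control values overlapped.

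**Figure D2:**
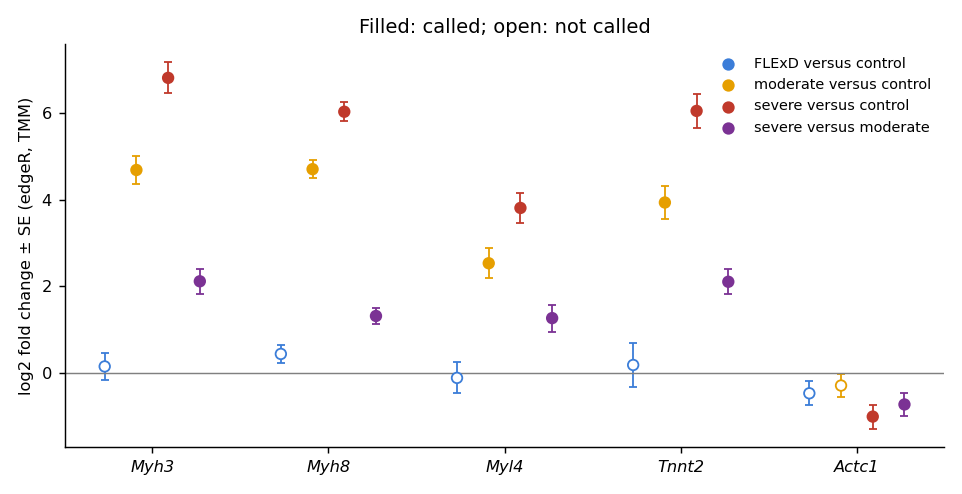
Log2 fold change (points) with its standard error (bars) for the 5 genes in 4 comparisons, from 1 edgeR fit of all 12 mice with TMM scaling. Filled points passed the call and open points did not. Myh3 reaches 6.80 in the severe model, and Actc1 lies below 0 in every comparison on this scale.

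Within the moderate and the severe group, the same mouse was lowest for each of the genes that rose, while control and FLExD mice showed no such common order. In the moderate model mouse 1236 was the highest and mouse 1308 the lowest for Myh3, Myh8, Myl4 and Tnnt2. In the severe model mouse 1066 was the lowest for all 5 genes, while mice 1047 and 1079 were close to each other. Actc1 in the moderate model did not share this order, since mouse 1236 was there the lowest. Leaving out mouse 1308 gave the smallest step from moderate to severe for these genes, at a log2 fold change of 1.91 for Myh3, 1.17 for Myh8, 1.11 for Myl4 and 1.84 for Tnnt2, and each was still called.

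Compared between genes per transcript length, in TPM, which divides by transcript length and sums to the same total in every library, Actc1 made up nearly all of the RNA of the 5 genes in unaffected muscle. Its TPM was 441.6 ± 205.7 (SD, n = 3) in controls, followed by Myl4 at 11.4 ± 3.55. Tnnt2 at 2.05 ± 0.365, Myh3 at 1.82 ± 0.232 and Myh8 at 1.72 ± 0.179 overlapped each other. In the severe model Actc1 stood at 507.3 ± 95.3 TPM, Myh3 at 358.2 ± 71.95, Myl4 at 356.4 ± 67.5, Tnnt2 at 170.2 ± 29.3 and Myh8 at 156.9 ± 20.2. There Myh3 and Myl4 overlapped, as did Tnnt2 and Myh8, and the lowest Actc1 value (422.3 TPM) lay inside the Myh3 range. Actc1 thus went from 95.7% ± 2.41 of the summed TPM of the 5 genes in controls to 71.3% ± 6.62 in moderate and 32.7% ± 1.09 in severe muscle. The other 4 genes together rose from 17.02 ± 3.09 TPM in controls to 205 ± 58.1 in moderate and 1042 ± 187 in severe muscle. The lowest TPM values may read high, as 164142 of the 164417 entries with 0 counts in the deposited tables had a TPM above 0.

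Each gene was next set against the adult members of its own family within the same library, a share that does not depend on the scaling between libraries. Each share was tested with a two-sided exact permutation test of 3 against 3 mice, whose smallest possible p is 0.1, so that no share could pass 0.05. Myh3 and Myh8 together made up 0.0234%, 0.0348% and 0.0189% of the TPM of 6 sarcomeric heavy chains (Myh1, Myh2, Myh3, Myh4, Myh7 and Myh8) in control mice. In moderate mice 1236, 1308 and 1331 the share was 1.49%, 0.732% and 0.878%, and in severe mice 1047, 1066 and 1079 it was 26.8%, 10.8% and 15.7%. The groups lay apart, with means of 0.0257% ± 0.00817 (SD, n = 3) in control, 1.03% ± 0.402 in moderate and 17.8% ± 8.19 in severe muscle (exact permutation p = 0.1 for each pair). The FLExD mean was 0.0344% ± 0.00432 (exact permutation p = 0.3 against control). The family as a whole fell from 14360 ± 2800 to 9030 ± 895.2 and 3154 ± 834.9 TPM, and Myh4, the fastest chain, from 13180 ± 3345 to 8112 ± 799.6 and 2263 ± 896.4 TPM.

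Within the pair, Myh3 gained on Myh8 in the severe model. Myh3 made up 53.9%, 51% and 48.9% of the summed TPM of Myh3 and Myh8 in controls, 62.2%, 56.3% and 56.3% in moderate mice and 70.4%, 66.8% and 70.8% in severe mice. The severe mice lay above all others (69.3% ± 2.21, exact permutation p = 0.1 against control and against moderate, n = 3 each). The gap between moderate and control rested on the unit. From counts in place of TPM, the control mean was 58.8% ± 3.55 and the moderate mean 58.4% ± 2.43, with overlapping values (exact permutation p = 0.9), while the severe mean was 71% ± 2.47 and still lay apart.

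Myl4 and Tnnt2 shifted in the same way against their adult partners. Myl4 made up 0.164%, 0.122% and 0.16% of the essential light chains (Myl1, Myl3 and Myl4) in controls, 2.01%, 1.09% and 1.18% in moderate mice and 14.5%, 6.98% and 9.39% in severe mice. Tnnt2 made up 0.0138%, 0.0141% and 0.00865% of troponin T (Tnnt1, Tnnt2 and Tnnt3) in controls, 0.398%, 0.173% and 0.265% in moderate mice and 7.28%, 3.24% and 4.43% in severe mice. Neither set of values overlapped between these groups (exact permutation p = 0.1 for each pair, n = 3), and FLExD mice overlapped the controls (p = 0.9 for Myl4 and p = 0.5 for Tnnt2, exact permutation). Severe muscle therefore held 10.3% ± 3.86 of its essential light chain RNA as Myl4 and 4.98% ± 2.07 of its troponin T RNA as Tnnt2. From counts the control share of Tnnt2 was 0.00793% and the severe share 5.77%.

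Actc1 also gained share, although its own level was not called higher on any scale tried. It made up 1.75%, 3.65% and 4.31% of the sarcomeric actins (Acta1 and Actc1) in control mice, 8.54%, 8.22% and 7.86% in moderate mice and 19.6%, 13.3% and 14.8% in severe mice. The groups did not overlap, with means of 3.23% ± 1.33, 8.21% ± 0.342 and 15.9% ± 3.32 (SD, n = 3 each, exact permutation p = 0.1 for each pair). Acta1, the adult skeletal alpha-actin, fell meanwhile from 13140 ± 1558 TPM in control to 5658 ± 420.4 in moderate and 2691 ± 167.5 in severe muscle. FLExD mice held 2.68% ± 0.438 as Actc1 (exact permutation p = 0.6 against control, n = 3).

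**Figure D3:**
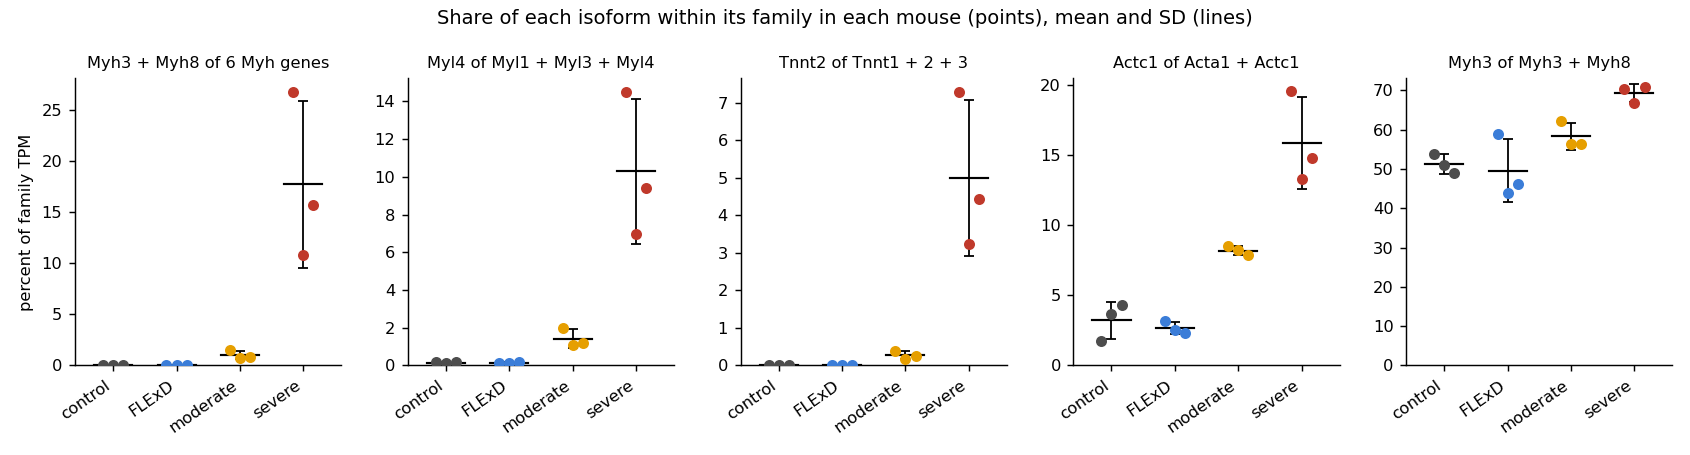
Share of each embryonic or perinatal isoform in the TPM of its family, in percent, for each of the 12 mice (points), with group mean (line) and SD (bar). The first 4 panels step up from control to moderate to severe mice, reaching 26.8% for Myh3 plus Myh8 and 19.6% for Actc1 in severe mouse 1047, and the last panel gives Myh3 as a share of Myh3 plus Myh8.

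Along the myosin cluster Myh3 and Myh8 rose in both models, and the adult genes between them fell in the severe model. With TMM scaling, Myh4 was called lower in the moderate (log2 fold change -1.24 ± 0.297 SE, adjusted p = 0.00288) and the severe model (-3.70 ± 0.326, adjusted p = 1.46e-07). Myh2 and Myh1, the chains of type 2A and 2X fibers, were not called in the moderate model (-2.09, adjusted p = 0.0613, and -0.63, adjusted p = 0.127) and were called lower in the severe model (-5.56, adjusted p = 0.000653, and -2.26, adjusted p = 5.93e-05). Myh13, a chain of extraocular muscle that closes the cluster, was low, at 1.29 CPM in controls and 0.301 in severe mice. It was called lower in the severe model with TMM but not by library size alone. The 3 noncoding genes of the cluster, all on the minus strand, also fell in the severe model. The lincRNA 2310065F04Rik beside Myh3 went from 78.5 CPM in controls to 13.6 in moderate and 0.919 in severe mice (log2 fold change -6.42 ± 0.25 SE in severe, adjusted p = 2.76e-10). The antisense gene Myhas, which overlaps Myh1, went from 40.04 to 13.7 and 2.04 CPM (-4.30 ± 0.211 in severe, adjusted p = 1.42e-09). The antisense gene 9430073C21Rik at Myh2 was called lower with TMM in the severe model only (-3.99, adjusted p = 0.00174, and -1.76, adjusted p = 0.0631, in moderate). Whether the counting used strand is not given in the sources used here, so reads of the antisense genes and of the overlapping myosin genes cannot be told apart. All these adult and noncoding genes kept their direction by library size alone in the severe model.

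**Figure D4:**
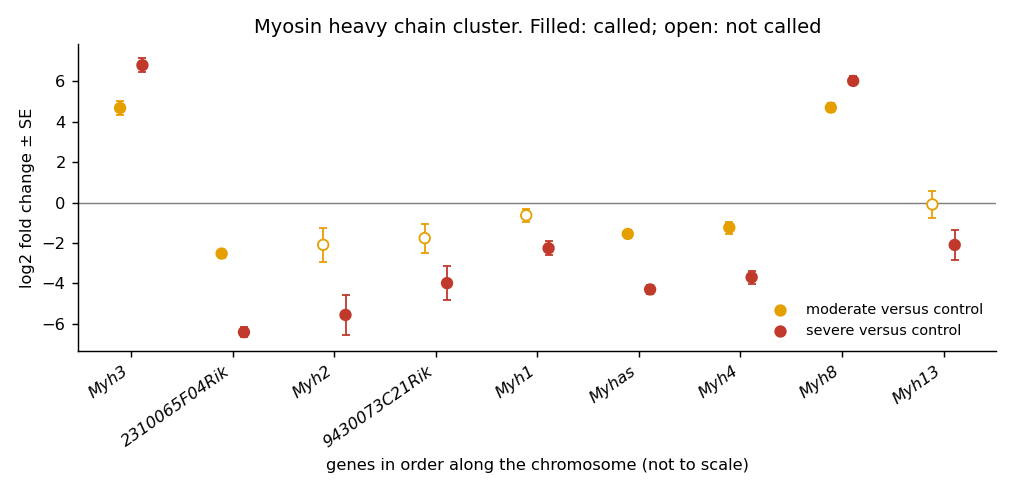
Log2 fold change (points) with its standard error (bars) for 9 genes of the myosin heavy chain cluster in their order along chromosome 11, moderate and severe model each against control. Filled points passed the call. Myh3 and Myh8 lie at 4.68 or above, and the genes between them lie below 0.

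Sequence shared among these heavy chains limits the 2 myosin members. Of the 5982 stretches of 50 bases (the read length) in the longest coding transcript of Myh3, 12.8% matched a transcript of another gene with up to 2 mismatches, most often Myh2. For Myh8 the share was 35.1%, again most often Myh2. For Actc1 it was 0.843%, and Myl4 and Tnnt2 had no such stretch. The expected counts were whole numbers in all 12 mice for Myl4 and Tnnt2 and fractional in all 12 for Myh3 and Myh8. Despite its small share, Actc1 had fractional counts in every mouse except FLExD mouse 1358. With Myh4 at 79310 ± 18000 CPM in controls, the control level of Myh3 and Myh8 is uncertain, and the part of reads from adult chains in it was not tested.

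The other genes of the pathway were taken from fixed lists. Of 9 adult fast partners (Myh1, Myh2, Myh4, Myl1, Mylpf, Acta1, Tnnt3, Tnni2 and Tnnc2), 7 were called lower in the moderate and all 9 in the severe model, and all 9 were lower in severe than in moderate muscle. Their median log2 fold change was -1.24 and -3.34 against control. The moderate and severe log2 fold changes were -1.70 and -3.48 for Acta1, -1.40 and -3.53 for Tnnt3, the fast troponin T, and -0.62 and -2.26 for Myl1, the fast essential light chain. By library size alone 6 and 9 of them were still called lower, with Myl1 at -0.01 in the moderate model.

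Of 10 slow and cardiac partners 8 were tested, and none was called higher. Myl2 and Myl3, the slow regulatory and essential light chains, were called lower in the moderate model, joined by Myh7 and the cardiac chain Myh6 in the severe model, where Myl3 went from 197.4 ± 154 to 0.711 ± 0.473 CPM. These genes differed widely among the controls, Myl3 between 73.4 and 382.6 TPM. Tnni1, the slow and embryonic troponin I, went from 60.4 ± 48.1 to 140.9 ± 39.3 CPM without a call in the severe model (log2 fold change 1.22, adjusted p = 0.169), and was called higher there by library size alone (2.53). Tnnt1 and Tnnc1 were not called.

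The list for newly formed fibers held 12 other genes, among them the extraocular chain Myh13. Moderate muscle had 10 higher calls and 1 lower, and severe muscle 9 higher and 2 lower (Mybph and Myh13). The median log2 fold change was 1.99 and 2.38. Setting Mymx and Chrng at their lower bounds could not change it, because these bounds lay above the median in both models. Chrng, the fetal gamma subunit of the acetylcholine receptor, had at most 1 count in a control library and was at least 50.7-fold higher in moderate and at least 201-fold higher in severe muscle, against a floor of 3 counts per library. Mymx (listed as Gm7325), a fusion factor of myoblasts, was at least 14.3-fold and 75.6-fold higher by the same floor. Its partner Mymk (listed as Tmem8c) went from 0.0965 CPM to 5.99 ± 2.11 and 23.2 ± 6.05 CPM. Igf2, a fetal growth factor, rose 5.61-fold and 13.9-fold, and Ncam1, the adhesion molecule of immature fibers, 4.17-fold and 13.4-fold. H19 rose 4.06-fold and 2.83-fold. Mybph was called lower in both models with TMM (-1.33 and -1.94), and Musk was called higher with TMM in the moderate model only. By library size alone 10 were called higher in each model, with Mybph called lower in the moderate model only.

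Of 11 myogenic transcription factors, moderate muscle had 2 higher and 3 lower calls, and severe muscle 5 higher and 6 lower. Myog, the factor of terminal differentiation, rose from 3.24 ± 0.575 to 26.8 ± 5.59 and 81.4 ± 11.1 CPM (log2 fold change 3.05 and 4.65). Myf5 rose by 1.68 and 2.56 on the log2 scale, and Myod1 by 2.35 in the severe model. Myod1 in the moderate model was not called with TMM (0.35, adjusted p = 0.246) and was called higher by library size alone (0.96). Tead4, whose family binds the M-CAT motif shown for Tnnt2, was called in the severe model (1.25, adjusted p = 0.000233) and not in the moderate (-0.12, adjusted p = 0.693). Srf, which binds the CArG motif shown for Actc1, was called lower in both (-0.88 and -1.48). The number of calls depended on the scale: by library size alone moderate muscle had 5 higher and 1 lower, and severe muscle 7 higher and no lower calls. Myog and Myf5 were still called higher in both models on that scale. Srf stayed below 0, at -0.27 in moderate and -0.18 in severe muscle, but was not called.

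**Figure D5:**
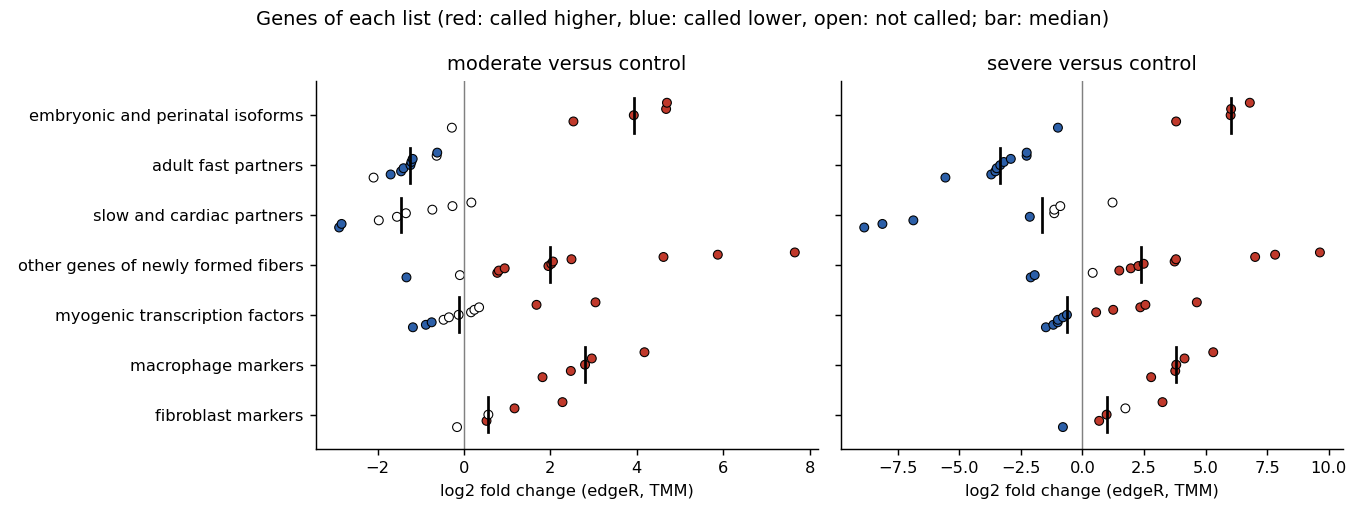
Log2 fold change of each tested gene in 7 lists (points; red called higher, blue called lower, open not called) with the list's median (bar), moderate and severe model against control, TMM scaling. Of the 5 embryonic and perinatal isoforms 4 lie at 2.53 or above in the moderate model, on the opposite side from the adult fast partners.

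Because Tnnt2, Actc1 and Myl4 are also heart genes, markers of the heart were read beside them. Of 7 cardiac muscle markers, Myl7 had 0 counts in every mouse, Nppb at most 1, Nppa at most 7, Mybpc3 at most 12, Tnni3 at most 18, Ryr2 at most 11 and Myh6, the highest, at most 55 counts (2.69 CPM), and the summed level was 0.694 to 2.47 CPM in controls and 0.757 to 1.14 CPM in severe mice. The highest counts of Tnni3, Mybpc3 and Nppa came from severe libraries, against at most 2, 0 and 2 counts in a control library. The 2 markers that were tested, Myh6 and Ryr2, gave 1 lower call, Myh6 in the severe model, which was lost by library size alone. The labelled tissue carried its markers, as 6 skeletal muscle markers summed to 146000 to 195000 CPM in controls. These fell to 64600 to 83600 CPM in moderate and 20700 to 29600 CPM in severe mice, 5 and 6 of 6 being called lower (4 and 5 by library size alone).

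Other cell types moved with the groups, and their part in these results was not tested. All 5 macrophage markers were called higher in both models, with sums of 54.9 to 66.2 CPM in control, 318 to 400 in moderate and 688 to 780 in severe mice. Of 5 fibroblast markers 3 were higher in moderate muscle, and severe muscle had 3 higher and 1 lower (Dcn), with sums of 625 to 1540, 2300 to 2420 and 3820 to 4940 CPM. Of 6 satellite cell markers 3 were higher in moderate muscle and 4 higher and 1 lower (Cd34) in severe muscle, with Pax7 at 1.77, 5.13 and 11.7 CPM and sums of 73.1 to 94.7, 106 to 118 and 112 to 117 CPM. Of 6 smooth muscle markers 2 were higher in moderate muscle, and severe muscle had 1 higher (Acta2) and 3 lower, with sums of 112 to 152, 154 to 175 and 153 to 204 CPM. All 4 endothelial markers were lower in severe and 2 in moderate muscle, with sums of 138 to 155, 87.9 to 115 and 60.4 to 71.7 CPM. By library size alone 5 fibroblast, 6 satellite cell and 4 smooth muscle markers were called higher and none lower in the severe model, and 1 endothelial marker was higher and 1 lower. On that scale all 6 satellite cell markers were called higher in the moderate model, 1 endothelial marker was lower, and the counts of fibroblast (3 higher) and smooth muscle markers (2 higher) were as with TMM.

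The genes whose pattern over the 12 mice was most like the mean of the 5 standardized profiles were Fap, Rragc, Pltp, Maged2 and Nubp1, with Pearson r from 0.991 to 0.985 in log2 CPM, among 7292 genes outside the lists with a mean of at least 10 CPM. Fap, which encodes a surface protease of activated fibroblasts, went from 10.4 ± 1.25 to 21.9 ± 1.28 and 25.6 ± 1.23 CPM in control, moderate and severe muscle, and Pltp, a lipid transfer protein, from 13.3 ± 1.66 to 35.2 ± 6.1 and 48.9 ± 5.04 CPM. Their rises were far smaller than those of the 4 rising isoforms. The mice fall into groups and 462 of the 7292 genes reached an r of 0.95, so the ranking is a description. Myh3, Myh8, Myl4 and Tnnt2 had r between 0.956 and 0.97 with the mean profile and Actc1 -0.29.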

How the data were processed

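The authors mapped single reads of 50 bases with RSEM 1.2.4, modified to call Bowtie, to an mm10 annotation merged from UCSC knownGene, Ensembl 71 and MISO, and mapped the remainder with TopHat2 2.0.8b. They deposited estimated counts per gene without normalization, and a table of TPM, in which entries with 0 counts mostly lie above 0. For 35982 of the 37748 identifiers the GENCODE names gave a current symbol.

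Expected counts were rounded and tested in R 4.3.3 with edgeR 4.0.16 (filterByExpr, TMM, robust quasi-likelihood F-test) in 1 fit of 12 mice and 4 groups, and the standard error was taken from the F statistic. Alternatives were library size alone, median-of-ratios factors, DESeq2 1.42.0, limma 3.58.1 on log2(TPM + 1) or log2(TPM + 0.1), no filter, at least 10 counts in every mouse, only the 2 groups compared, and each mouse left out. Shares were computed from TPM per mouse. Members were described in full, listed genes by counts and examples, the genes of the myosin cluster by position, and the 5 genes most like the members by correlation. The members and lists were chosen with earlier results of these data known, and the library-size counts of the lists were added after seeing the data. Transcript stretches were matched with BWA 0.7.19. Scripts were tested on simulated data. The 3 mice per group are separate animals with no shared replicate numbers. Depth was similar across libraries, and floors cover counting error only.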

Additional observations from a re-analysis of the deposited data

How the results depend on the processing

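The rises of Myh3, Myh8, Myl4 and Tnnt2 kept their direction and call in all 20 alternatives of the moderate and severe comparisons. In that order, the log2 fold changes in the severe model were 6.58 to 8.11, 5.85 to 7.32, 3.55 to 5.11 and 5.78 to 7.34. In the moderate model they were 4.23 to 5.3, 3.8 to 5.31, 2.26 to 3.15 and 3.01 to 4.54. The highest value against control came each time from library size alone. Between severe and moderate muscle the ranges were 1.91 to 2.81, 1.17 to 2.08, 1.11 to 2.01 and 1.84 to 2.84. Actc1 turned upward by library size alone and by limma with a pseudocount of 1 or 0.1, to 0.322, 0.306 and 0.307 in the moderate and 0.31, 0.298 and 0.298 in the severe model, none called, with adjusted p from 0.316 to 0.376. Leaving out 1 mouse moved Actc1 in the moderate model between -0.594 (without control 1127, then called, adjusted p = 0.0308) and 0.0476 (without control 1349), in the severe model between -1.29 and -0.652, called each time, and in severe against moderate muscle between -0.827 and -0.568. The call in severe against moderate muscle was also lost by library size alone (-0.0117), limma (-0.00883 and -0.00887), no filter (-0.672) and at least 10 counts in every mouse (-0.654). In FLExD mice, uncalled throughout, leaving out 1 mouse moved Myh3 between -0.0962 and 0.318, Myl4 between -0.496 and 0.0624, Tnnt2 between -0.0927 and 0.433, Actc1 between -0.745 and -0.103 and Myh8 between 0.334 and 0.584. From counts in place of TPM, Myh3 was 58.8% of Myh3 plus Myh8 in controls, the developmental heavy chains were 0.0267% in FLExD mice, and Tnnt2 was 0.00793% of troponin T in control and 0.00944% in FLExD mice. The causes were not tested. No paired analysis was possible because the groups share no replicate numbers. Among the 5 members, depth limits Tnnt2 most, with 18 to 34 counts per control library.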
